A study of Mus musculus with 18 samples.

Results

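The levels of 10 genes were examined in mouse mammary tumors and normal mammary glands: Fgfr1, Fgfr2, Fgfr3, Fgfr4, Met, Hgf, Igf1r, Insr, Igf1 and Axl, which encode the fibroblast growth factor receptors, the receptor of hepatocyte growth factor and its ligand, the insulin-like growth factor and insulin receptors with the ligand IGF1, and the receptor tyrosine kinase AXL. They were taken by gene symbol from the count file, 10 of 55450 genes, and all 10 were among the 19186 genes that passed a filter on low counts. RNA was sequenced from whole tumors of 3 genotypes, 5 each, and from 3 normal glands, 1 library per mouse. All mice were C57Bl/6 females, and tumors were induced in adult mice by injecting an adenovirus that carries Cre recombinase under a CMV promoter (Ad5-CMV-Cre) through the nipple into the mammary ducts, so that Cre itself was not tied to a mammary cell type. B1/P/Rbf tumors arose in Brca1fl/fl/Trp53fl/fl/TgK18GT121Tg/+ mice, in which Cre deletes Brca1 and Trp53 and switches on T121, a fragment of a viral protein that binds and inhibits the retinoblastoma family proteins pRb, p107 and p130 and whose transgene is driven by the keratin 18 promoter of simple epithelia. B1/P tumors arose in Brca1fl/fl/Trp53fl/fl mice, which lack the T121 transgene, and P/Rbf tumors in Trp53fl/fl/TgK18GT121Tg/+ mice, whose Brca1 is intact. Loss of Trp53 was therefore common to all 3 tumor groups. The normal glands came from wild-type mice.

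Receptor tyrosine kinases of these families bind a secreted ligand outside the cell, pair up and phosphorylate each other, and pass the signal on to the RAS-ERK and PI3K-AKT pathways. In the mammary gland, FGF10 and FGF7 from the stroma act on the epithelial form of FGFR2, HGF from fibroblasts acts on MET in ductal cells, and IGF1, made in the liver and in the mammary stroma, acts on IGF1R during ductal growth. AXL binds GAS6 and protein S and is known from mesenchymal and invasive cells. FGF signaling through ERK induces the transcription factors ETV4 and ETV5 and the feedback inhibitors of the Sprouty, SPRED and DUSP families.

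Libraries held between 27661173 and 37794889 expected counts, with a median of 33802255. Levels are given as CPM, counts relative to library size, scaled with TMM, edgeR's correction for differences in library composition. A gene was called when its Benjamini-Hochberg adjusted p did not exceed 0.05 in edgeR's quasi-likelihood test over all 19186 genes. Brca1 averaged 29.8 ± 8.97 CPM in B1/P/Rbf, 15.3 ± 8.78 in B1/P, 79.0 ± 32.7 in P/Rbf (SD, n = 5 each) and 5.45 ± 0.735 in normal glands (SD, n = 3). Brca1 was lower in B1/P than P/Rbf (a log2 difference of 2.37, edgeR adjusted p = 0.000845), while B1/P/Rbf missed the threshold against P/Rbf (-1.41, edgeR adjusted p = 0.0903) and had 4 of 5 tumors below all of P/Rbf. The exception was tumor 208863 at 45.0 CPM (the other 4 at 21.1 to 27.9, P/Rbf at 44.9 to 116), for which the study's description gives only a partial loss of Brca1. Without it the difference was -1.61 (edgeR adjusted p = 0.0861) and again none of the 10 genes was called between the T121 groups. Both groups with Brca1 deletion were above the glands, and counts per gene do not single out the deleted exons. Trp53 averaged 14.7 ± 4.68, 14.8 ± 7.48 and 10.8 ± 1.96 CPM in the 3 tumor groups (SD, n = 5 each) and 61.5 ± 9.16 in the glands (SD, n = 3). T121 itself was not analysed here. For an alternative fit the mouse numbers were split in 2 runs, up to 246361 and from 248662 on. The split follows no clear break in the numbers, since other gaps, such as that from 255232 to 287822, are wider. The first run holds every B1/P/Rbf tumor, along with 225068, 225070 and 246361 of B1/P, and the second holds the other 2 of B1/P and the whole of P/Rbf and of the glands. The labels do not say what the runs are. B1/P alone had samples in both, so a term for the runs rests on its 5 tumors.

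The glands were rich in other tissues. Summed over 6 skeletal muscle markers they held 23592 to 47339 CPM, against at most 22.5 in tumors other than B1/P tumor 248662, which held 630. Summed over 9 adipocyte markers the glands held 12274 to 16491 CPM and the tumors 15.7 to 262. Over 8 lymphocyte markers the sums were 581 to 833 CPM and 17.0 to 140. Among tumors, the sum of 12 luminal markers (keratin 8 and 18, the estrogen receptor and others) ran from 4285 to 7857 CPM in B1/P/Rbf and from 6986 to 13400 in P/Rbf, above the 1145 to 4132 of B1/P, and the sum of 8 basal markers ran from 372 to 2190 in B1/P, 53.2 to 337 in B1/P/Rbf and 78.4 to 1461 in P/Rbf. The sum of 7 pericyte and smooth muscle markers was 1152 to 1748 CPM in the glands, 468 to 850 in B1/P, 191 to 563 in B1/P/Rbf and 204 to 412 in P/Rbf, so that B1/P and P/Rbf did not overlap. Of these 7, 4 were called lower in B1/P/Rbf and 6 lower in P/Rbf than in the B1/P tumors by edgeR, none higher. Of 12 fibroblast markers, 2 and 6 were called lower in these comparisons, and of the 8 basal markers 3 and 2, none higher. Of the 12 luminal markers, 6 and 7 were called higher, and 1 was called lower in P/Rbf. Of all genes, 7.36% and 8.43% were called higher and 9.29% and 10.8% lower. The sum of 8 endothelial markers was 495 to 546 CPM in the glands and 87.6 to 383 in the tumors, and that of 8 macrophage markers 230 to 326 and 316 to 1943. No marker was at 0 throughout a group. The part of these cell types in the results below was not tested, and in bulk RNA fewer cells of a type cannot be told apart from less RNA per cell.

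Which of the 10 genes differed with T121 and with Brca1 loss was asked by comparing the tumor groups. Between B1/P/Rbf and B1/P, which differ in T121, 4 of the 10 were called, Fgfr3 higher and Fgfr1, Igf1r and Axl lower, where 16.7% of all genes tested were called (7.36% higher and 9.29% lower). Between P/Rbf and B1/P, 4 were called, Fgfr3 and Met higher and Fgfr1 and Axl lower, against 19.2% of all genes (8.43% higher and 10.8% lower). Between B1/P/Rbf and P/Rbf, which share T121 and differ in Brca1, none of the 10 was called, where 0.281% of all genes were (0.219% higher and 0.0625% lower). Of the 10 genes, 2 had an unadjusted edgeR p under 0.05 in that comparison, Met and Igf1r, and DESeq2 called 1, Igf1r. Median log2 fold changes over the 10 genes were -1.19, -0.58 and 0.14 in these comparisons, beside -0.06, -0.05 and -0.01 over all genes. The comparisons share groups and are given side by side only.

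Against normal glands, 4 of the 10 were called in B1/P/Rbf, Fgfr3 higher and Fgfr4, Insr and Igf1 lower, where 37% of all genes were called (17.1% higher and 20% lower). Among B1/P tumors, 3 were called, Fgfr1 and Axl higher and Igf1 lower, where 33.8% of all genes were (16.8% higher and 16.9% lower). Among P/Rbf tumors, 5 were called, Fgfr3 and Met higher and Fgfr4, Insr and Igf1 lower, where 37.7% of all genes were (17.4% higher and 20.3% lower). Median log2 fold changes over the 10 genes were -0.82, -0.11 and -0.31, beside 0.05, 0.12 and 0.05 over all genes. In all, 20 of the 60 tests of a member in a comparison were calls.

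**Figure D1:**
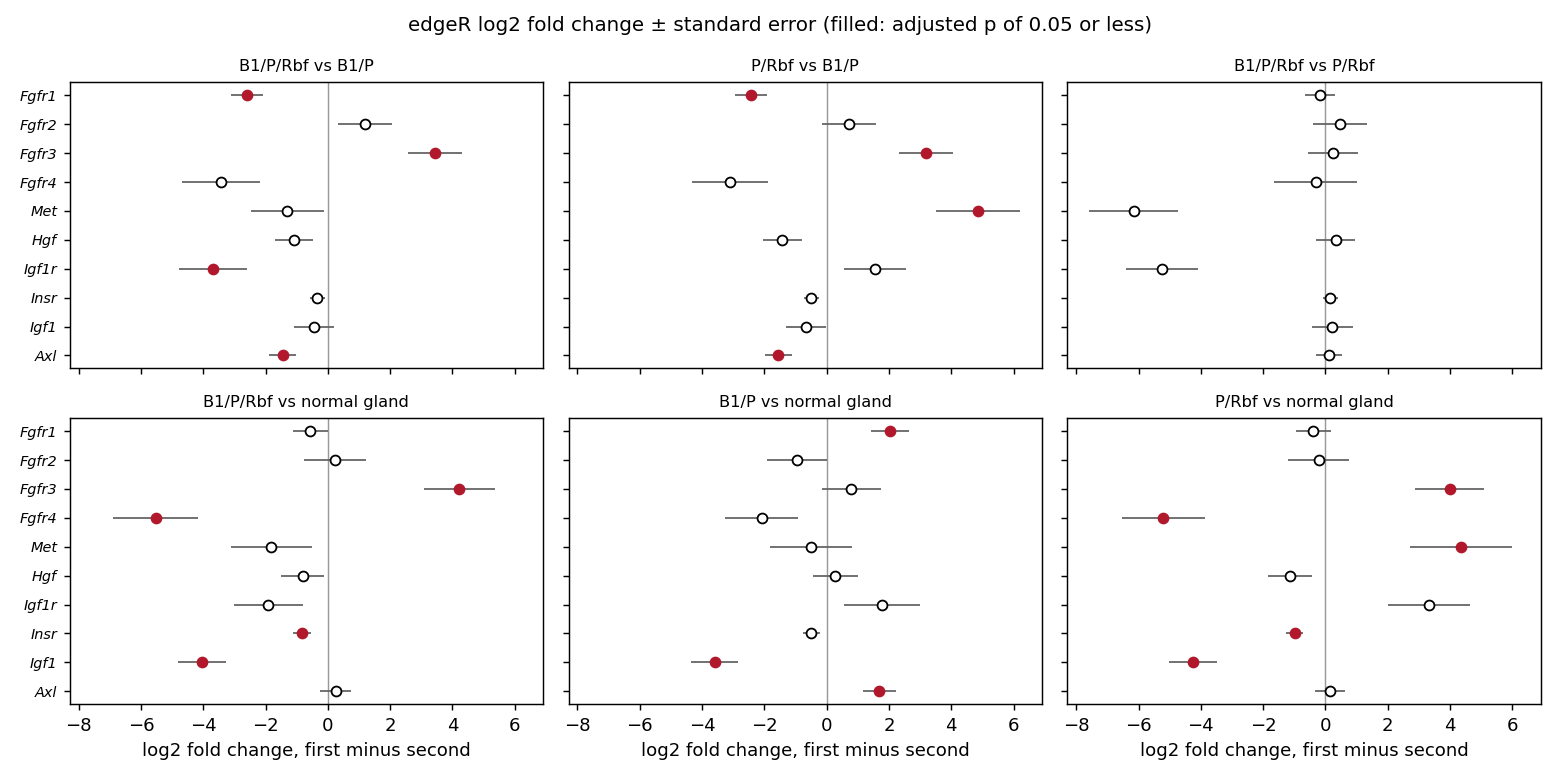
Log2 fold change of the 10 genes in 6 comparisons, the first group named minus the second, with the standard error of the edgeR fit as bars. Filled points mark the 20 calls at an adjusted p of 0.05 or less. Fgfr1 lies to the left and Fgfr3 to the right in both comparisons of a T121 group with B1/P.

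The FGF receptors come first. Fgfr1 (ENSMUSG00000031565.18), at chr8:25513654-25575718 (GRCm38, plus strand), encodes the receptor form common in mesenchymal cells. It stood at 1797, 962, 1007, 590 and 466 CPM in the B1/P tumors (mice 225068, 225070, 246361, 255232 and 248662). In B1/P/Rbf it stood at 187, 98.2, 256, 71.2 and 182 CPM (mice 208855, 208857, 208863, 209490 and 210906), and in P/Rbf at 372, 291, 77.1, 68.8 and 92.8 CPM (mice 287842, 287845, 290860, 287822 and 290845). Every B1/P tumor was above all tumors with T121 and above the glands, which held 238, 232 and 237 CPM. Fgfr1 was 6.06-fold lower in B1/P/Rbf than in the B1/P tumors, a log2 fold change of -2.60 (SE 0.52, edgeR adjusted p = 0.00321), and 5.35-fold lower in P/Rbf, a log2 fold change of -2.42 (SE 0.52, edgeR adjusted p = 0.00478). Both calls held without any single library, with largest adjusted p of 0.0113 and 0.0138. With a term for the 2 runs of mouse numbers the first held at -2.98 (edgeR adjusted p = 0.00324) and the second came to -1.55 (edgeR adjusted p = 0.0944). B1/P exceeded the glands by 2.03 on the log2 scale (SE 0.62, edgeR adjusted p = 0.0175), a call lost without any one of the 3 glands (edgeR adjusted p = 0.0559 to 0.0620) and with the term for the runs (1.16, edgeR adjusted p = 0.201). Pericyte and smooth muscle markers and some fibroblast markers were also lower in both T121 groups, and several luminal markers higher, as given above. Over the 15 tumors, as deviations from group means, Fgfr1 correlated with pericyte and smooth muscle markers at r = 0.13. The correlation was 0.20 with fibroblast markers and -0.39 with luminal markers. These describe values that share libraries, and the part of these cells in the level of Fgfr1 was not tested.

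Fgfr3 (ENSMUSG00000054252.18), at chr5:33721674-33737068 on the plus strand, a receptor best known from cartilage and from urothelium, ran the other way. It was at 411, 66.4, 142, 143 and 193 CPM in B1/P/Rbf and at 19.8, 3.08, 20.0, 8.07 and 37.8 CPM in B1/P, in the order of mice above. In P/Rbf it was at 48.1, 13.0, 538, 38.6 and 172 CPM and in the glands at 9.42, 11.6 and 9.72 CPM. All B1/P/Rbf tumors were above all B1/P tumors, and in P/Rbf 4 of 5 were, tumor 287845 being the exception. All tumors of both T121 groups were above all glands. Fgfr3 was 10.8-fold higher in B1/P/Rbf than in the B1/P tumors (log2 fold change 3.43, SE 0.87, edgeR adjusted p = 0.0132) and held without any single library (largest adjusted p = 0.0325) and with the term for the runs (3.74, edgeR adjusted p = 0.0393). It was 9.13-fold higher in P/Rbf (3.19, SE 0.86, edgeR adjusted p = 0.0165), and this call was lost without tumor 290860, the highest, at 1.94 (edgeR adjusted p = 0.0669), with the term for the runs at 2.82 (edgeR adjusted p = 0.166), with voom at 2.50 (adjusted p = 0.0739) and in a fit of the groups compared alone at 3.20 (edgeR adjusted p = 0.0658). Against the glands Fgfr3 was higher by 4.22 in B1/P/Rbf (SE 1.13, edgeR adjusted p = 0.00750) and by 3.98 in P/Rbf (SE 1.11, edgeR adjusted p = 0.00961) on the log2 scale, and both held without any single library, the second at 2.73 without tumor 290860 (edgeR adjusted p = 0.0235). B1/P did not differ detectably from the glands (0.79, SE 0.94, edgeR adjusted p = 0.545). Several luminal markers were also higher and some basal markers lower in both T121 groups than in B1/P, as given above. Over the 15 tumors, as deviations from group means, Fgfr3 correlated with luminal markers at r = 0.45 and with basal markers at r = 0.58. These describe values that share libraries, and the part of these cells in the level of Fgfr3 was not tested.

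The promoter of Fgfr3 is shown because the gene moved in both groups that carry T121. It is the stretch from 250 bases before to 50 after the first of its RefSeq starts, chr5:33721474-33721773 (GRCm38.p6, plus strand), 5′ to 3′, with capitals marking the GC box GGGCGG on either strand, the element bound by SP1. This motif is in 35.7% of 32851 such promoters.
Fgfr3: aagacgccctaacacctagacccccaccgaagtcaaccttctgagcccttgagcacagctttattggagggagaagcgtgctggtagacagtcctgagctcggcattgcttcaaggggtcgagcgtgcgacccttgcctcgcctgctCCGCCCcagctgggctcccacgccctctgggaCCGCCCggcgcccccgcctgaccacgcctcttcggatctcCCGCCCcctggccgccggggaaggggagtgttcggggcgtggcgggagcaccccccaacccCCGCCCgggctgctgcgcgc
It holds 4 GC boxes. The E2F motif TTTNGCGC, in 1.38% of promoters, and the AP-1 motif TGANTCA, in 7.81%, were also searched on both strands and these letters were not in the window. Motif matches describe the sequence and no binding was measured.

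Fgfr2 (ENSMUSG00000030849.18), at chr7:130162451-133123350 on the minus strand, encodes the receptor of FGF7 and FGF10 in epithelia. The annotation behind the counts stretches this gene far beyond its RefSeq span (chr7:130162451-130266808) by a long transcript that passes over other genes, so reads may have been divided between them. It was at 177, 82.8, 37.4, 336 and 411 CPM in B1/P/Rbf, at 87.3, 0.415, 186, 41.1 and 145 CPM in B1/P, and at 62.0, 102, 149, 349 and 96.0 CPM in P/Rbf. The glands held 185, 177 and 170 CPM. The groups overlapped throughout and no comparison was called (smallest adjusted p = 0.375, B1/P/Rbf against B1/P, log2 fold change 1.18, SE 0.87). B1/P tumor 225070 stood far apart, with 14 counts, 90.3-fold below the next lowest tumor.

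Fgfr4 (ENSMUSG00000005320.9), at chr13:55152640-55168759 on the plus strand, the receptor that binds FGF15 with the co-receptor beta-Klotho in the liver, was barely detected. Counts were 1, 2, 0, 3 and 0 in B1/P/Rbf, 3, 0, 8, 49 and 6 in B1/P, 0, 6, 1, 0 and 0 in P/Rbf, and 40, 22 and 80 in the glands. All tumors with T121 lay below all glands, and of the B1/P tumors 255232 lay among them. Pooled over libraries, the glands exceeded B1/P/Rbf 49.4-fold (exact 95% interval 22.1 to 137), P/Rbf 41.0-fold (19.4 to 104) and B1/P 4.28-fold (3.18 to 5.83), where the intervals cover counting error only. Tumor 255232 held 49 of the 66 B1/P counts, and without it the glands exceeded B1/P 13.3-fold (8.04 to 23.5), a value added after the data were seen. edgeR called Fgfr4 lower than in the glands in B1/P/Rbf (log2 fold change -5.52, adjusted p = 0.00449) and P/Rbf (-5.20, adjusted p = 0.00587), the latter at -7.30 without tumor 287845 (adjusted p = 0.00150). B1/P was not called against the glands (-2.09, edgeR adjusted p = 0.179), but was without tumor 255232 (-3.73, edgeR adjusted p = 0.0238). Against B1/P, B1/P/Rbf was not called (-3.43, edgeR adjusted p = 0.0675), although DESeq2 called it (-3.59, adjusted p = 0.0397), and P/Rbf was not called (-3.10, edgeR adjusted p = 0.0818), although it was with the term for the runs (-4.18, edgeR adjusted p = 0.0448). With that term, B1/P/Rbf against the glands came to -2.53 (edgeR adjusted p = 0.363). P/Rbf against B1/P was also called without tumor 287845 (-5.20, edgeR adjusted p = 0.0198) or 225070 (-3.42, edgeR adjusted p = 0.0422). So was B1/P/Rbf against B1/P, at -3.43 without tumor 287845 (edgeR adjusted p = 0.0428) and -3.74 without 225070 (edgeR adjusted p = 0.0329).

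**Figure D2:**
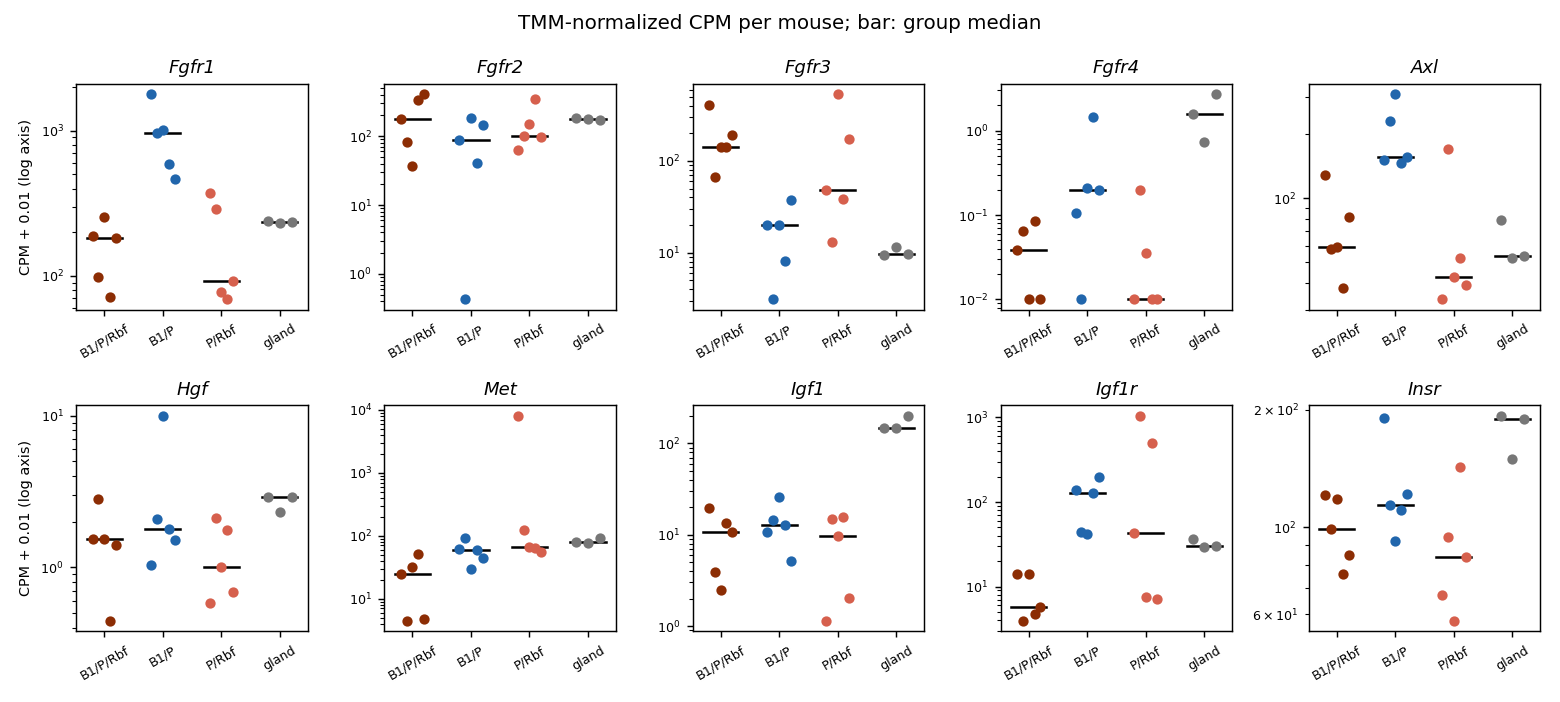
CPM of each gene in every mouse on a log axis, with 0.01 added so that 0 can be drawn, for 5 tumors of each of 3 genotypes and 3 normal glands, with the group median as a bar. Single tumors stand apart for Met (8116 CPM in P/Rbf), Fgfr2 (0.415 in B1/P) and Hgf (9.98 in B1/P), and 2 P/Rbf tumors for Igf1r (1049 and 497).

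The ratio of Fgfr1 to Fgfr2 within a library was above 1 in 5 of 5 B1/P tumors, 3 of 5 B1/P/Rbf tumors, 2 of 5 P/Rbf tumors and 3 of 3 glands. On the log2 scale it averaged 4.66 ± 3.69 in B1/P, -0.06 ± 1.88 in B1/P/Rbf and 0.15 ± 1.95 in P/Rbf (SD, n = 5 each), and 0.41 ± 0.06 in the glands (SD, n = 3). In the exact two-sided permutation test, B1/P/Rbf and P/Rbf each differed from B1/P at p = 0.0238, but after adjustment over 18 tests of 3 ratios none was called, the smallest adjusted p being 0.102. The mean of B1/P leans on tumor 225070, whose Fgfr2 was nearly absent. Without it the mean was 3.08 and the difference of B1/P/Rbf from B1/P came to -3.14. The mean of B1/P/Rbf was -0.77 without tumor 208863 and that of P/Rbf -0.46 without tumor 287842.

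Of 22 genes for FGF ligands, 11 passed the filter on low counts. Fgf2 and Fgf10, a ligand of fibroblasts and vessels and the stromal ligand of FGFR2, were lower in all 3 tumor groups than in the glands. Fgf10 was at 44.3, 41.4 and 56.8 CPM in the glands and at most 1.16 in any tumor, with log2 fold changes of -7.30 in B1/P/Rbf, -7.64 in B1/P and -9.67 in P/Rbf (edgeR adjusted p = 0.000103, 9.85e-05 and 2.1e-05). The first was -9.10 without tumor 208855 and the last -12.09 without tumor 287845 (edgeR adjusted p = 1.16e-05 and 7.04e-06). Fgf2 was at 55.4, 42.9 and 61.5 CPM in the glands and at 0.763 to 15.2 in the tumors, with log2 fold changes of -3.42, -2.60 and -4.60 (edgeR adjusted p = 0.000453, 0.00383 and 4.33e-05). Fgf6, a ligand of skeletal muscle, was called lower in the same 3 comparisons, of which B1/P/Rbf was lost with the term for the runs (-5.86, edgeR adjusted p = 0.973). Muscle, fat, lymphocyte, endothelial and pericyte marker sums were also higher in the glands, as given above. Their part in these calls was not tested. Called counts against the glands were 5 (1 higher, 4 lower) in B1/P/Rbf, 4 lower in B1/P and 4 lower in P/Rbf, where 37%, 33.8% and 37.7% of all genes were called and 20%, 16.9% and 20.3% were lower. Between tumor groups, Fgf2 was lower in P/Rbf than in B1/P (-2.00, edgeR adjusted p = 0.0204), a call lost with the term for the runs (-1.67, edgeR adjusted p = 0.131) and with voom (-1.54, adjusted p = 0.0810). There, 2 more ligands were called, where 19.2% of all genes were, Fgf7 lower (lost without any 1 of 5 libraries) and Fgf13 higher (lost without any 1 of 3), both lost with the term for the runs, and none of the 11 was called in the other comparisons of tumors. The sum of pericyte and smooth muscle markers was also lower in P/Rbf than in B1/P, as given above. Its part in the calls of Fgf2 and Fgf7 was not tested.

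B1/P/Rbf tumor 209490 stood apart in 3 ligands that lie side by side at chr7:144838083-144900953, a pattern chosen after the values were seen. Fgf15, the mouse form of the gut hormone FGF19, was at 204 CPM (8046 counts) there and had at most 102 counts in any other tumor. Fgf3, known as a site where mouse mammary tumor virus inserts, had 2678 counts (67.9 CPM) and at most 32 in any other tumor, and Fgf4 had 303 counts (7.69 CPM) and at most 2 in any other tumor, with 2, 5 and 6 in the glands. Among the genes around them, LTO1 at 41.4 CPM (other tumors at most 29.5) and Ppfia1 at 226 CPM (at most 171) were also at their highest there, as was Cttn by a margin of 638 to 637 CPM, whereas Ano1, between Ppfia1 and Fgf3, was at 309 CPM (39.4 to 430) and Ccnd1, which overlaps the end of LTO1 on the other strand, at 93.6 CPM (21.8 to 1212), within the range of the other tumors. The glands held no count of Fgf15. Against a floor of 3 counts in a gland library, tumor 209490 was at least 1741-fold higher and tumor 208857 at least 3.68-fold higher, and the other 3 B1/P/Rbf tumors had 1 or 2 counts. The call of Fgf15 in B1/P/Rbf against the glands was lost without any 1 of 5 libraries. These were tumor 209490 (edgeR adjusted p = 0.0745), tumor 287845 and each gland. With voom it was lost too (adjusted p = 0.163).

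Of the 12 genes for FGF co-receptors, decoys and adaptors, 2 were called lower in B1/P/Rbf and 4 lower in P/Rbf against B1/P, where 9.29% and 10.8% of all genes were lower, and none higher. Against the glands 3 were called lower in B1/P/Rbf, 3 lower in P/Rbf, and 3 in B1/P (2 higher, 1 lower), where 20%, 20.3% and 16.9% of all genes were lower and 16.8% higher in B1/P. Fgfrl1, which encodes a decoy receptor without a kinase domain, was at 33.0, 35.9, 25.3, 27.8 and 13.6 CPM in B1/P/Rbf and 29.4, 41.5, 22.9, 22.6 and 36.3 CPM in P/Rbf. In B1/P it was at 75.6, 114, 53.4, 132 and 77.8 CPM and in the glands at 85.1, 112 and 120 CPM, above every tumor with T121. Its log2 fold changes were -1.74 and -1.57 against B1/P (edgeR adjusted p = 0.00113 and 0.00202) and -1.96 and -1.79 against the glands (edgeR adjusted p = 0.000141 and 0.000301), and no single library decided them. Cdh2, N-cadherin, which binds FGFR1 at the cell surface, was lower than in B1/P, with log2 fold changes of -5.30 in B1/P/Rbf (edgeR adjusted p = 0.00110) and -4.35 in P/Rbf (edgeR adjusted p = 0.00262). B1/P tumor 255232 stood at 129 CPM and the others at 4.30 to 24.6, and without it these were -4.02 (edgeR adjusted p = 0.00183) and -3.07 (edgeR adjusted p = 0.00561). Without P/Rbf tumor 287842 the value in P/Rbf was -5.24 (edgeR adjusted p = 0.00148). Several pericyte and smooth muscle markers were also lower in both T121 groups than in B1/P. Their sum was highest in the glands (1152 to 1748 CPM), where Cdh2 was at 4.69 to 6.58 CPM. The part of these cells in the level of Cdh2 was not tested. Klb, beta-Klotho, was at 46.7, 36.4 and 52.6 CPM in the glands and at most 0.284 in any tumor.

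Genes that FGF and ERK signaling is known to induce included several that were highest in B1/P. Of 10 such genes, 4 were called lower in B1/P/Rbf and 5 lower in P/Rbf than in the B1/P tumors, none higher, where 9.29% and 10.8% of all genes were lower. Medians were -0.94 and -1.12 on the log2 scale, beside -0.06 and -0.05 over all genes, and none was called between the T121 groups. Against the glands 6 were called higher in B1/P, 3 higher in B1/P/Rbf and 2 higher in P/Rbf, where 16.8%, 17.1% and 17.4% of all genes were. Spry1 and Spred3 averaged more in B1/P/Rbf (79.7 and 17.7 CPM) than in B1/P (44.3 and 13.7), neither called (edgeR adjusted p = 0.172 and 0.576). In P/Rbf they averaged 21.1 and 10.5 CPM. Spry1 was called higher than in the glands in B1/P/Rbf (1.58, edgeR adjusted p = 0.0210) and not in B1/P (0.73, edgeR adjusted p = 0.257). Etv5 was at 168, 199, 191, 497 and 310 CPM in B1/P, at 24.4, 6.85, 14.1, 27.5 and 23.8 in B1/P/Rbf, at 68.1, 15.2, 14.1, 8.87 and 18.6 in P/Rbf and at 18.2, 16.4 and 19.3 in the glands. Its level in B1/P did not overlap that of any other group. The log2 fold change of Etv5 was -3.82 in B1/P/Rbf and -3.45 in P/Rbf against B1/P (edgeR adjusted p = 0.000486 and 0.000842) and 3.93 in B1/P against the glands (edgeR adjusted p = 0.000359). All 3 held without any single library (P/Rbf against B1/P at -4.22 without tumor 287842, edgeR adjusted p = 0.000165) and with the term for the runs. Dusp6, an ERK phosphatase, was at 216, 219, 177, 246 and 289 CPM in B1/P and at 82.2, 18.6, 103, 47.0 and 31.7 in B1/P/Rbf (-2.02, edgeR adjusted p = 0.0122). In P/Rbf it ran from 31.2 to 206 CPM, with tumor 287842 at the top, and its call there (-1.47, edgeR adjusted p = 0.0461) was lost without any 1 of 13 libraries and with the term for the runs (-1.70, edgeR adjusted p = 0.0895), and was -2.10 without tumor 287842 (edgeR adjusted p = 0.00545). Some fibroblast, pericyte and basal markers were also lower in both T121 groups than in B1/P, and several luminal markers higher, as given above. The part of these cells in the level of the target genes was not tested.

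**Figure D3:**
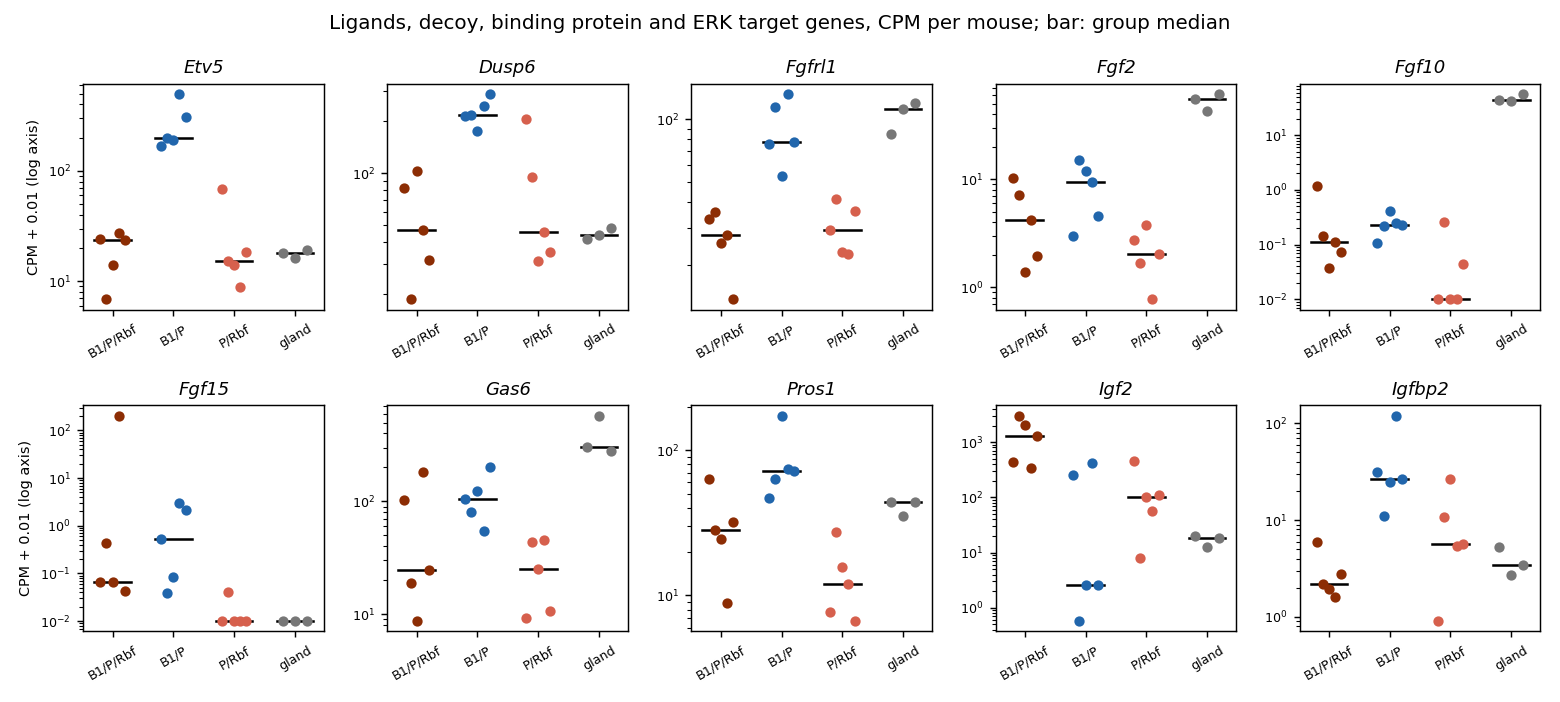
CPM of ligands, a decoy receptor, a binding protein and target genes in every mouse on a log axis (0.01 added), with the group median as a bar. Etv5 in B1/P (168 to 497 CPM) lies above all other samples, Fgf2 and Fgf10 are highest in the 3 glands, and Fgf15 reaches 204 CPM in 1 B1/P/Rbf tumor.

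Hgf (ENSMUSG00000028864.7), the ligand of MET, lies at chr5:16553495-16620152 on the plus strand. It was low in every library, between 0.431 CPM (17 counts) in B1/P/Rbf tumor 209490 and 9.98 CPM (397 counts) in B1/P tumor 246361, the latter 3.56-fold above the next tumor. The glands held 2.89, 2.32 and 2.88 CPM, above all 5 P/Rbf tumors (0.575 to 2.11) and 4 of 5 tumors of each other group. No comparison of Hgf was called (smallest adjusted p = 0.120, P/Rbf against B1/P, log2 fold change -1.42, SE 0.63).

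Met (ENSMUSG00000009376.15), at chr6:17463800-17573980 on the plus strand, stood far apart in 1 tumor. P/Rbf tumor 287842 had 282164 counts, 8116 CPM, which made Met the gene with the rank of 2 by level in that library, at 0.774% of it. The other P/Rbf tumors were at 125, 65.1, 64.5 and 55.8 CPM, B1/P at 61.7, 93.5, 29.7, 59.8 and 44.7 and the glands at 79.1, 76.9 and 91.3. B1/P/Rbf was at 24.5, 4.37, 32.4, 51.6 and 4.77 CPM, below all glands and below all P/Rbf tumors. Met was 64.9-fold higher in tumor 287842 than in the next tumor. The calls of Met as higher in P/Rbf than in B1/P (log2 fold change 4.86, SE 1.35, edgeR adjusted p = 0.0189) and than in the glands (4.35, SE 1.64, edgeR adjusted p = 0.0458) rested on it. Without tumor 287842 they came to 0.47 (edgeR adjusted p = 0.596) and 0.00 (edgeR adjusted p = 1.00), and the call against the glands was also lost without any 1 of 10 other libraries. The difference between B1/P/Rbf and P/Rbf was not called (-6.16, edgeR adjusted p = 0.0724) and came to -1.74 without tumor 287842. Between B1/P/Rbf and the glands Met was not called either (-1.81, edgeR adjusted p = 0.289), and without tumor 287842, which is in neither group, it was (-1.74, edgeR adjusted p = 0.0322).

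The promoter of Met is shown because of this tumor. It lies at chr6:17463707-17464006 (RefSeq, GRCm38.p6, plus strand), with capitals for GC boxes and for the AP-1 motif. The RefSeq span of Met begins before this window, at 17463349, so the window is not set on the outermost start.
Met: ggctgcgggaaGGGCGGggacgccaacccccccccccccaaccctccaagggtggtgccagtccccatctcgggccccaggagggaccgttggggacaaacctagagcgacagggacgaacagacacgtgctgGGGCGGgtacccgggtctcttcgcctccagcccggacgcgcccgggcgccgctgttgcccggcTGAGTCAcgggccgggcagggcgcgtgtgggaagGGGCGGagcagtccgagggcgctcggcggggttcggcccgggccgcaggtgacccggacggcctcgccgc
It holds 3 GC boxes and 1 AP-1 motif, and the E2F motif was not in the window. Of 13 genes of that level within 1.5 Mb of Met, 5 were at their highest of all 15 tumors in tumor 287842, where 8.04% of the 17204 genes with at least 1 CPM in some tumor were. These were Tes at 541 CPM (others 29.7 to 187), Cav2 at 695 CPM (37.2 to 257), Capza2 at 240 CPM (139 to 213), Cttnbp2 at 50.4 CPM (0.178 to 28.9) and Lsm8 at 99.9 CPM (34.5 to 71.0). Cav1, between Cav2 and Met, was at 18.1 CPM within the range of the others (6.15 to 105), and St7 and Wnt2 on the far side were in range too. DNA copy number was not measured in these files. The windows around genes were chosen after the values were seen.

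The same view was taken of other tumors that stood apart. Around Fgfr2 in B1/P tumor 225070, 6 of 17 genes were at their lowest of 15 tumors, where 6.87% of genes were, and Dmbt1, a secreted scavenger protein, was at 0 CPM there. Around Hgf in B1/P tumor 246361, 7 of 10 genes were highest, where 9.53% of genes were, among them Cacna2d1 at 22.3 CPM (others 1.84 to 15.6), and the rest are predicted genes and Speer family genes with near-identical copies, whose counts are uncertain. Around Igf1r in P/Rbf tumor 287845, 1 of 12 genes was highest, Synm at 56.7 CPM (others 0.910 to 11.3), and in P/Rbf tumor 287822 none of 12 was, where 7.11% and 8.86% of genes were. Around Fgfr1, 7 of 33 genes were highest in B1/P tumor 225068, where 9.46% of genes were, among them Letm2 at 13.4 CPM (others 2.05 to 8.21) and Hook3 at 171 CPM (39.2 to 121). In B1/P tumors 225070 and 246361, 4 and 2 of the 33 were, where 8.66% and 9.53% of genes were. Around Fgfr3, 2 of 43 were highest in P/Rbf tumor 290860 and none in B1/P/Rbf tumor 208855, where 5.75% and 4.27% of genes were.

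**Figure D4:**
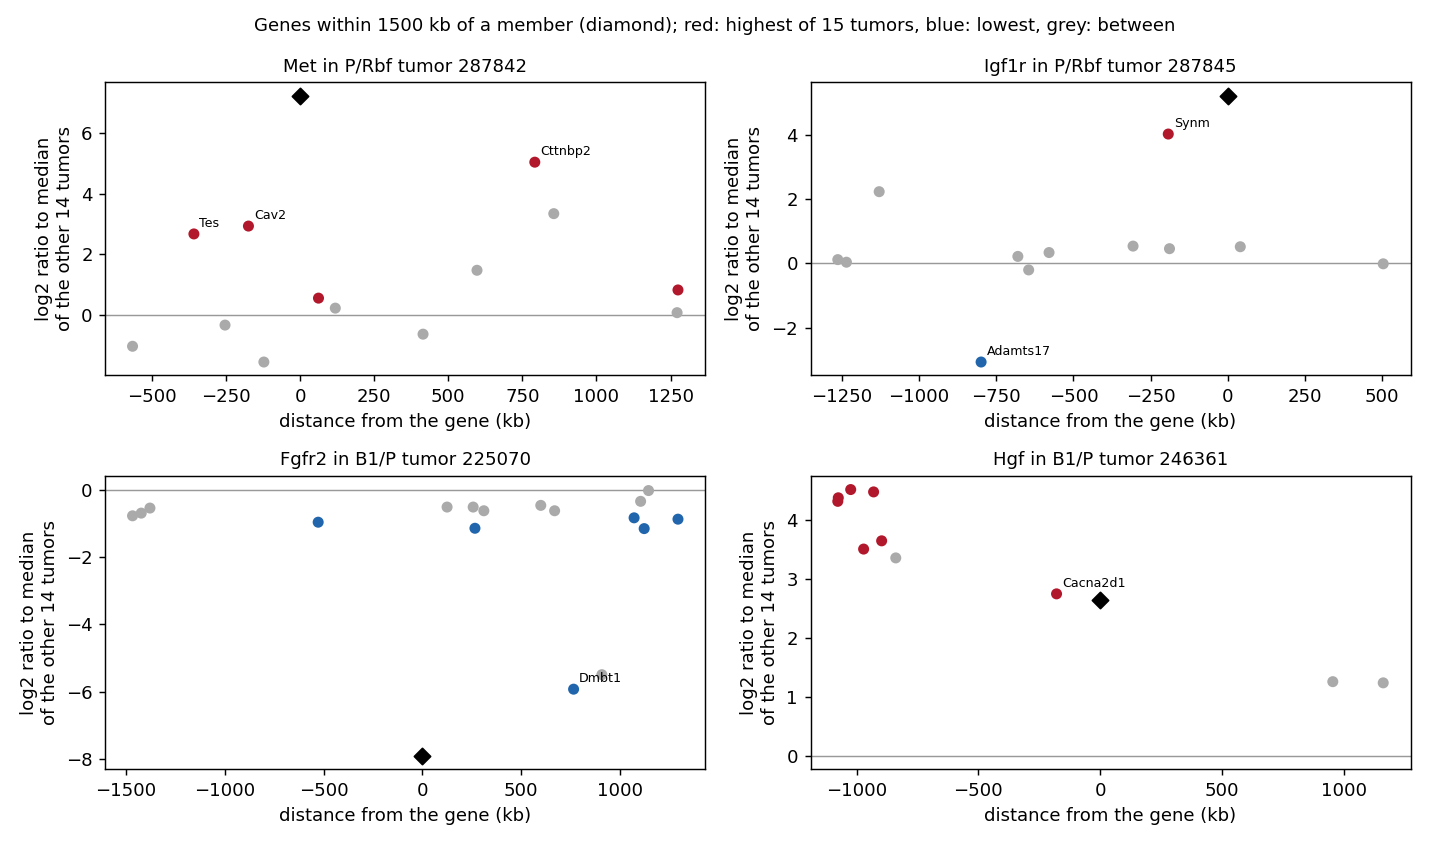
Log2 ratio of a gene in the named tumor to the median of the other 14 tumors, against its distance in kb from Met, Igf1r, Fgfr2 or Hgf, which is drawn as a diamond. Red marks genes highest and blue genes lowest of 15 tumors, and around Met in P/Rbf tumor 287842 5 of 13 are red while genes between them are grey.

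Among 14 genes for HGF activation and MET partners, none was called between the T121 groups. St14, matriptase, which cleaves HGF to its active form, was higher than in B1/P by 1.48 in B1/P/Rbf and 1.41 in P/Rbf on the log2 scale (edgeR adjusted p = 0.00159 and 0.00210), and higher than in the glands by 2.58 and 2.52 (edgeR adjusted p = 1.49e-05 and 1.85e-05). Spint2, an inhibitor of the same proteases, was higher in B1/P/Rbf than in the B1/P tumors by 1.16 (edgeR adjusted p = 0.0169). Its call in P/Rbf (0.97, edgeR adjusted p = 0.0354) was lost without any 1 of 6 libraries and with the term for the runs (0.46, edgeR adjusted p = 0.432). Gab1, the docking adaptor of MET, was lower in B1/P/Rbf than in the B1/P tumors, at a log2 fold change of -1.88 (edgeR adjusted p = 0.0115). Mst1, the ligand of the MET relative RON, was lower, at a log2 fold change of -5.29 (edgeR adjusted p = 0.0194). Among B1/P tumors Mst1 ranged from 0 counts in 225070 to 25.2 CPM in 246361. The log2 fold change was -4.24 without the latter (edgeR adjusted p = 0.0488) and -7.00 without B1/P/Rbf tumor 210906 (edgeR adjusted p = 0.0108), and with voom the call was lost (-4.22, adjusted p = 0.127). In all, 6 of the 14 were called in B1/P/Rbf against B1/P (4 higher, 2 lower) and 4 in P/Rbf against B1/P (3 higher, 1 lower), where 16.7% and 19.2% of all genes were called. Against the glands 9 were called in B1/P/Rbf (8 higher), 6 in B1/P (5 higher) and 8 in P/Rbf (7 higher), where 37%, 33.8% and 37.7% of all genes were called and 17.1%, 16.8% and 17.4% were higher. Plxnb1, a semaphorin receptor that associates with MET, was higher by 3.31, 2.43 and 2.91 (edgeR adjusted p = 5.1e-07, 8.82e-06 and 1.36e-06). Several luminal markers were also called higher in both T121 groups than in B1/P, and 1 was called lower in P/Rbf, as given above. The log2 ratio of Hgf to Met averaged -3.48 ± 2.38 in B1/P/Rbf, -4.54 ± 1.71 in B1/P and -7.37 ± 3.53 in P/Rbf (SD, n = 5 each), was below 0 in every library, and differed in no comparison after adjustment (exact permutation test, smallest adjusted p = 0.102). Tumor 287842 stood at -13.64, and the mean of the other 4 P/Rbf tumors was -5.80 ± 0.46 (SD, n = 4). Without tumor 246361 the mean of B1/P was -5.29, and without tumor 208857 that of B1/P/Rbf was -4.19.

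Igf1 (ENSMUSG00000020053.18), at chr10:87858265-87937042 on the plus strand, was lower in every tumor than in every gland. The glands held 149, 146 and 201 CPM and the 15 tumors 1.12 to 25.9 CPM. Log2 fold changes were -4.04 (SE 0.77) in B1/P/Rbf, -3.59 (SE 0.75) in B1/P and -4.25 (SE 0.77) in P/Rbf, with edgeR adjusted p of 0.00059, 0.00161 and 0.000386. These calls held without any single library, and the tumor groups did not differ detectably from each other (log2 differences of -0.67 to 0.22). The sums of adipocyte, skeletal muscle, lymphocyte, endothelial and pericyte markers were also higher in the glands than in the tumors, as given above. Over the 15 tumors, as deviations from group means, Igf1 correlated with endothelial markers at r = 0.64 and with macrophage markers at 0.57. The correlation was 0.54 with pericyte and smooth muscle markers and -0.43 with luminal markers. With adipocyte markers it was 0.16 and with skeletal muscle markers -0.25. The part of these cells in the level of Igf1 was not tested.

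Igf1r (ENSMUSG00000005533.10), at chr7:67952827-68233668 on the plus strand, was low in B1/P/Rbf and uneven in P/Rbf. It stood at 14.0, 3.89, 14.1, 4.67 and 5.78 CPM in B1/P/Rbf, at 137, 44.2, 42.3, 129 and 196 CPM in B1/P and at 36.4, 29.5 and 30.1 CPM in the glands. All B1/P/Rbf tumors were below all glands and all B1/P tumors above them, but no group was called against the glands by edgeR (-1.91 in B1/P/Rbf, 1.78 in B1/P and 3.33 in P/Rbf, adjusted p = 0.185, 0.268 and 0.0549). In fits of the groups compared alone the first 2 were called (-1.93 and 1.78, edgeR adjusted p = 0.00801 and 0.0278). P/Rbf was called by DESeq2 (3.34, adjusted p = 0.00524), without TMM (3.57, edgeR adjusted p = 0.0381) and without tumor 287842, 290860 or 290845 (3.64 to 3.69, edgeR adjusted p = 0.0239 to 0.0365), and came to -0.73 without tumors 287845 and 287822 (edgeR adjusted p = 0.453). P/Rbf tumors 287845 and 287822 were at 1049 and 497 CPM, and the other 3 at 43.1, 7.59 and 7.05. Igf1r was 12.9-fold lower in B1/P/Rbf than in the B1/P tumors (log2 fold change -3.69, SE 1.08, edgeR adjusted p = 0.0271). The groups did not overlap, but the call was lost without tumor 208857, 209490, 210906 or 248662 (-3.37 to -3.58, edgeR adjusted p = 0.0522 to 0.0654), with the term for the runs (-3.13, edgeR adjusted p = 0.0803) and with voom (-3.57, adjusted p = 0.0881). Between B1/P/Rbf and P/Rbf the difference of -5.24 was not called by edgeR (adjusted p = 0.0610) and was called by DESeq2 (adjusted p = 4.02e-06). Without tumor 290860 or 290845 edgeR called it too (-5.55 and -5.56, edgeR adjusted p = 0.0421 and 0.0326). It rests on tumors 287845 and 287822. Without the first it came to -4.03 (edgeR adjusted p = 0.137; DESeq2 -4.05, adjusted p = 0.000878), and without both to -1.18 (edgeR adjusted p = 0.378), where DESeq2 no longer called it (-1.16, adjusted p = 0.327), refits chosen after the values were seen. P/Rbf and B1/P did not differ detectably (1.55, SE 0.99, edgeR adjusted p = 0.278), and without tumors 287845 and 287822 the sign turned and the gene was called lower in P/Rbf (-2.51, edgeR adjusted p = 0.0277), an alternative chosen after the values were seen.

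The promoter of Igf1r lies at chr7:67952007-67952306 (RefSeq, GRCm38.p6, plus strand) and is shown for a gene whose P/Rbf tumors spanned a 149-fold range.
Igf1r: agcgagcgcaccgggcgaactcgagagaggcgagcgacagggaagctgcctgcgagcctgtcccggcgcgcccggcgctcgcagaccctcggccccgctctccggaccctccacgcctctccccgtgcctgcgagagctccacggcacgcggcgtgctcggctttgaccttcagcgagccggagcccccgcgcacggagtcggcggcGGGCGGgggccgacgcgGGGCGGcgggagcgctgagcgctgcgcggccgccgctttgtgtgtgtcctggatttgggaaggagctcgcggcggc
It holds 2 GC boxes, in capitals, and the AP-1 and E2F motifs were not in the window.

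Insr (ENSMUSG00000005534.10), the insulin receptor, at chr8:3122061-3279617 on the minus strand, was the steadiest of the 10 within each tumor group, though not within the glands. It stood at 76.0 to 121 CPM in B1/P/Rbf (median 99.1), 92.5 to 190 in B1/P (median 114) and 57.6 to 143 in P/Rbf (median 83.8), and at 193, 150 and 189 CPM in the glands. It was lower than in the glands in P/Rbf, at a log2 fold change of -0.99 (SE 0.28, edgeR adjusted p = 0.00962), which held without any single library. The call in B1/P/Rbf (-0.83, SE 0.28, edgeR adjusted p = 0.0267) was lost without tumor 209490 or 210906 or without any 1 gland (-0.74 to -0.87, edgeR adjusted p = 0.0539 to 0.101), without TMM (-0.46, edgeR adjusted p = 0.193), which by itself moved the median of all genes by 0.37, and with the term for the runs (-1.01, edgeR adjusted p = 0.133). The log2 ratio of Igf1r to Insr averaged -3.74 ± 0.67 in B1/P/Rbf, -0.41 ± 0.87 in B1/P and -0.37 ± 3.01 in P/Rbf (SD, n = 5 each), and -2.46 ± 0.16 in the glands (SD, n = 3). Without tumor 287845 the mean of P/Rbf was -1.33. All B1/P/Rbf tumors were below all B1/P tumors (exact permutation p = 0.00794, the smallest that 5 against 5 can give, and 0.102 after adjustment over 18 tests).

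**Figure D5:**
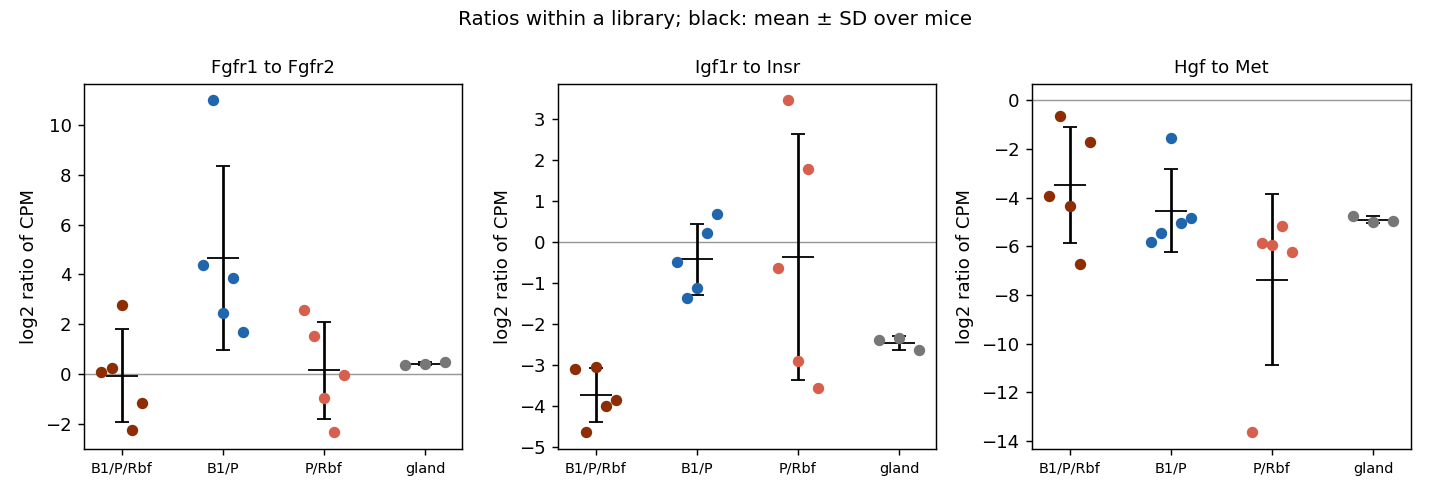
Log2 ratio of Fgfr1 to Fgfr2, Igf1r to Insr and Hgf to Met in each library, with the mean and SD of each group in black. Igf1r to Insr in B1/P/Rbf (mean -3.74) does not overlap B1/P (mean -0.41), and P/Rbf spreads over both.

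Of 22 further genes of the IGF system, 19 passed the filter. Between B1/P/Rbf and B1/P 4 were called (1 higher, 3 lower) and between P/Rbf and B1/P 7 (2 higher, 5 lower), where 16.7% and 19.2% of all genes were called. Igfbp2, a binding protein that holds IGFs, was at 5.87, 2.16, 1.93, 1.60 and 2.76 CPM in B1/P/Rbf and at 31.7, 11.1, 25.0, 120 and 26.7 CPM in B1/P (log2 fold change -3.91, edgeR adjusted p = 0.00331; -3.04, adjusted p = 0.00908, without tumor 255232). Igfbp3, the main carrier in blood, was lower, at a log2 fold change of -1.69 (edgeR adjusted p = 0.00908). Stc2, stanniocalcin 2, which restrains the protease that frees IGFs from binding proteins, was higher by 3.14 in B1/P/Rbf and 2.73 in P/Rbf (edgeR adjusted p = 0.00599 and 0.0111). These 4 calls held without any single library, but that of Stc2 in P/Rbf was lost with the term for the runs (2.01, edgeR adjusted p = 0.162). Against the glands 9 were called in B1/P/Rbf (5 higher, 4 lower), 7 in B1/P (5 higher, 2 lower) and 5 in P/Rbf (2 higher, 3 lower), where 37%, 33.8% and 37.7% of all genes were.

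Igf2, the fetal growth factor that also binds IGF1R, was at 430, 3017, 2080, 344 and 1271 CPM in B1/P/Rbf and at 447, 7.98, 102, 55.5 and 110 CPM in P/Rbf. In B1/P it was at 253, 0.563, 2.54, 427 and 2.62 CPM, and in the glands at 19.7, 12.7 and 18.1 CPM. All B1/P/Rbf tumors lay above all glands, and the B1/P tumors fell on both sides of them. The difference between B1/P/Rbf and the glands was 6.41 on the log2 scale (SE 2.03, edgeR adjusted p = 0.0201), a call lost without any one of the 3 glands (largest edgeR adjusted p = 0.0717). B1/P/Rbf and B1/P did not differ by the test (3.38, SE 1.39, edgeR adjusted p = 0.106).

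Axl (ENSMUSG00000002602.16), at chr7:25757273-25788705 on the minus strand, was highest in B1/P. It stood at 152, 231, 310, 146 and 156 CPM in B1/P, at 129, 57.9, 58.8, 38.1 and 81.9 CPM in B1/P/Rbf and at 33.5, 171, 42.7, 52.4 and 39.1 CPM in P/Rbf. The glands held 79.1, 52.4 and 53.4 CPM. All B1/P/Rbf tumors and all glands were below all B1/P tumors, and 4 of 5 P/Rbf tumors were, tumor 287845 being the exception. Axl was 2.73-fold lower in B1/P/Rbf than in the B1/P tumors (log2 fold change -1.45, SE 0.43, edgeR adjusted p = 0.0304), and the call was lost without tumor 208857, 208863, 209490, 210906 or 246361 (-1.23 to -1.49, edgeR adjusted p = 0.0506 to 0.0755). It was 2.94-fold lower in P/Rbf (-1.55, SE 0.43, edgeR adjusted p = 0.0199), -2.25 without tumor 287845 (edgeR adjusted p = 0.000826), and lost without tumor 246361 (-1.34, edgeR adjusted p = 0.0514) or 290845 (-1.41, edgeR adjusted p = 0.0511), with the term for the runs (-1.15, edgeR adjusted p = 0.181) and in a fit of the groups compared alone (-1.55, edgeR adjusted p = 0.0614). Against the glands B1/P was higher by 1.69 (SE 0.53, edgeR adjusted p = 0.0201), lost without gland 330155 (1.62, edgeR adjusted p = 0.0701) or 330156 (1.59, edgeR adjusted p = 0.0815) and with the term for the runs (1.29, edgeR adjusted p = 0.126). Among tumors the sum of 12 fibroblast markers moved with Axl. It was 2759 to 13493 CPM in B1/P, 943 to 5029 in B1/P/Rbf and 1402 to 4183 in P/Rbf. The glands went the other way, with a fibroblast sum of 1866 to 3185 CPM (median 3117, beside 3278 in B1/P, 1122 in B1/P/Rbf and 1549 in P/Rbf) while Axl was at 52.4 to 79.1 CPM, within the range of the T121 groups. Over the 15 tumors, as deviations of log2 CPM from group means, the correlation of Axl with the mean of the 12 fibroblast markers was r = 0.67, with that of the endothelial markers 0.66, of pericyte and smooth muscle markers 0.55, of macrophage markers 0.53, of lymphocyte markers 0.52 and of luminal epithelial markers -0.55, a description of values that share libraries. Several pericyte and smooth muscle markers were lower in both T121 groups than in B1/P, as Axl was. Their sum was higher in the glands (1152 to 1748 CPM) than in B1/P (468 to 850), whereas Axl was lower in the glands. The part of these cells in the level of Axl was not tested.

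The ligands of AXL did not follow it in every group. Pros1, protein S, was at 46.9, 62.9, 173, 74.7 and 71.8 CPM in B1/P and at 7.74, 27.2, 15.6, 11.9 and 6.64 CPM in P/Rbf (log2 fold change -2.63, edgeR adjusted p = 0.00235), and no single library decided this. Gas6 was at 304, 575 and 281 CPM in the glands and at 9.26, 43.4, 25.4, 45.5 and 10.7 CPM in P/Rbf (-3.85, edgeR adjusted p = 0.00114). In B1/P it was at 104, 80.4, 123, 55.1 and 202 CPM, below all glands but not called (-1.77, edgeR adjusted p = 0.0811). Of the 4 genes listed, Gas6, Pros1 and the related receptors Tyro3 and Mertk, 1 was called in B1/P/Rbf against B1/P, 2 in P/Rbf against B1/P, and 1, 1 and 2 against the glands in B1/P/Rbf, then B1/P, then P/Rbf. Of all genes, 16.7%, 19.2%, 37%, 33.8% and 37.7% were called in these comparisons. Mertk was called in no comparison.

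The promoter of Axl lies at chr7:25788684-25788983 (RefSeq, GRCm38.p6, minus strand) and is shown beside that of Fgfr3 because Axl was called lower in both groups with T121. The RefSeq span of Axl starts at 25788924 on this strand, and the window is not set on that outermost start.
Axl: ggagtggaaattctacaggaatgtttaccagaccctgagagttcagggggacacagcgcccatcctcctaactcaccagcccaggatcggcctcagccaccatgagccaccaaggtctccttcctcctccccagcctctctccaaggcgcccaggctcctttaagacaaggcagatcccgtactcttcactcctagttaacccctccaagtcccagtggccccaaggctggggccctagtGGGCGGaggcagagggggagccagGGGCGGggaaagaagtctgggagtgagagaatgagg
It holds 2 GC boxes, in capitals, and the AP-1 and E2F motifs were not in the window. A promoter was available for 8 of the 10 genes, and those of Fgfr3, Met, Igf1r and Axl are shown here.

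Downstream of the receptors, 20 genes for adaptors and kinases shared by these pathways were also tested. Between B1/P/Rbf and B1/P 5 were called, all lower, where 16.7% of all genes were called, and between P/Rbf and B1/P 5 (2 higher, 3 lower), where 19.2% were. Pik3r2, a regulatory subunit of PI3K, was lower in B1/P/Rbf, at a log2 fold change of -1.02 (edgeR adjusted p = 0.00585), and this held without any single library. Crk, an adaptor, was higher in P/Rbf than in B1/P by 0.76 (edgeR adjusted p = 0.0177), and was not called with the term for the runs (0.90, edgeR adjusted p = 0.0537). Against the glands 6 were called in B1/P/Rbf (3 higher, 3 lower), 9 in B1/P (7 higher, 2 lower) and 10 in P/Rbf (7 higher, 3 lower), where 37%, 33.8% and 37.7% of all genes were. Akt1 was higher in B1/P/Rbf, then B1/P, then P/Rbf by 0.91, 1.07 and 1.23 (edgeR adjusted p = 0.0117, 0.00475 and 0.00152), and Akt2, the form known from fat and muscle, lower, at log2 fold changes of -1.24, -1.78 and -1.38 (edgeR adjusted p = 0.00676, 0.000516 and 0.00311). With the term for the runs both calls in B1/P/Rbf were lost, Akt1 at 0.81 (edgeR adjusted p = 0.174) and Akt2 at -0.49 (edgeR adjusted p = 0.514).

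To compare genes with each other, CPM was divided by the length of each gene's merged exons in kb. In B1/P, Fgfr1 led with a median of 97.5 CPM per kb, followed by Axl at 31.0. The ranges of these overlapped (47.2 to 182 and 29.0 to 61.6), and that of Axl lay above that of Fgfr2 (0.0401 to 18.0), the next in order. In B1/P/Rbf, Fgfr3 at 19.9, Fgfr1 at 18.5, Fgfr2 at 17.1 and Axl at 11.7 CPM per kb formed an order in which neighbours overlapped. In P/Rbf the order was Fgfr2 at 9.92, Fgfr1 at 9.39, Axl at 8.49, Met at 8.47 and Fgfr3 at 6.71 CPM per kb, again overlapping. In the glands it was Fgfr1 at 24.0, Fgfr2 at 17.1, Igf1 at 15.0, Insr at 13.7, Axl at 10.6 and Met at 10.3 CPM per kb, where Fgfr1 stood apart from Fgfr2 and Igf1 from Insr.

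For each gene, the 3 genes most like it were taken as those with the highest Pearson correlation of deviations of log2 CPM from the group mean over the 15 tumors, among genes averaging 5 CPM or more. These correlations are descriptions over points that share libraries, and none is tested. The closest genes of Met were Tes (r = 0.92), Bet1 (0.86) and Zfp212 (0.86), all on chromosome 6 as Met is. Met stood far apart in tumor 287842, and by Spearman's rho Tes was at 0.84, Bet1 at 0.51 and Zfp212 at 0.50. The closest genes of Igf1r were Ptms (0.93), Exd1 (0.93) and Pde4d (0.90). For Fgfr1 they were Rabep2 (0.88), Myh9 (0.87) and Myo7a (0.87), for Fgfr2 Irx4 (0.89), Lzts1 (0.89) and Art4 (0.88), and for Fgfr3 Tppp (0.84), Plch2 (0.81) and Aoc1 (0.80). For Axl they were Maf (0.91), Thbd (0.91) and Aebp1 (0.89), for Igf1 Rab3il1 (0.89), Cd38 (0.86) and Abca9 (0.86), and for Insr Pag1 (0.86), Edem3 (0.84) and Chn2 (0.83). For Hgf they were Lat (0.87), Rassf5 (0.86) and Cuedc2 (0.85), and for Fgfr4, which rests on few counts, Wdr82 (0.87), Mapkapk5 (0.87) and Zfp68 (0.86). Among the 10 genes themselves, the closest pairs were Hgf with Axl (r = 0.66) and Igf1r with Insr (r = 0.64).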

How the data were processed

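RNA of 15 mammary tumors and 3 normal glands was sequenced in pairs of reads from stranded libraries. The authors trimmed reads with cutadapt 1.18 and counted them with RSEM 1.3.0 (study methods and labels, which name a human as well as a mouse build). The deposited values are RSEM expected counts without normalization, for 55450 genes, of which 5.61% are not whole, since reads that match several genes are divided. Identifiers are those of GENCODE M21 on GRCm38. Here counts were rounded and fitted with edgeR 4.0.16 (filterByExpr with a minimum count of 10, TMM, glmQLFit over all 18 samples, glmQLFTest), adjusted by Benjamini-Hochberg over 19186 genes, after a test on simulated data. Log2 CPM used a prior count of 2. Alternatives were DESeq2 1.42.0, limma-voom (limma 3.58.1) with quantile normalization, no TMM, other filters, the groups compared alone, a term for the 2 runs of mouse numbers, and each sample left out. Ratios were tested with exact two-sided permutation tests. The 10 genes and the gene lists were chosen with earlier results of these data known. Named genes were the 10, Brca1 and Trp53, up to 4 called genes per list and comparison by size of change, ligands and co-receptors, and the 3 genes most like each. Each library is 1 mouse, no replicates agreed within sampling noise (33 pairs), and intervals cover counting error only.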

Additional observations from a re-analysis of the deposited data

Results flagged for a closer look

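In a group of 5 tumors, 4 values stood apart from the other 4 by more than Dixon's 95% critical value of 0.71 for the gap to the nearest value over the range, on the log2 scale. They were Fgfr2 in B1/P tumor 225070 (0.747), Fgfr4 in P/Rbf tumor 287845 (0.752), Met in P/Rbf tumor 287842 (0.838) and Axl in P/Rbf tumor 287845 (0.727). Of 30 groups of values checked, chance flags about 1 in 20. The value of Fgfr4 rests on 6 counts against 0 or 1 in the other P/Rbf tumors. Fgfr2 had 14 counts in B1/P tumor 225070, where the other B1/P tumors had 1390 to 7406. The same P/Rbf tumor 287845 held the highest Axl of its group (171 CPM), the highest Igf1r of all tumors (1049 CPM) and the highest sum of fibroblast markers of its group (4183 CPM), and their relation was not tested.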

How the results depend on the processing

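Of 1527 refits of a member's log2 fold change, 1405 kept direction and side of the threshold, 54 lost a call, 25 gained one and 43 changed sign, of which 1 was called after the change but not before (Igf1r, P/Rbf against B1/P, -2.51 without tumors 287845 and 287822). No paired analysis was possible because each mouse number occurs in 1 group. DESeq2 gave Met no adjusted p in any comparison. The cause of the changes below was not tested, except that the study's filter keeps 4551 genes and so drops low ones. Fgfr4 and Hgf had the fewest counts of the members, and the part of depth in their results was not tested. Scaling without TMM moved the median of all genes by 0.27 to 0.37 against the glands and voom by at most 0.15.

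Members called in P/Rbf against B1/P numbered 2 with voom (Fgfr1 and Axl), 1 with only the groups compared (Fgfr1), 1 with the term for the runs (Fgfr4, not among the 4 called otherwise) and 7 without tumors 287845 and 287822. B1/P/Rbf against P/Rbf gave 1 with DESeq2. Against the glands, the study's filter gave 2 in B1/P/Rbf and 2 in P/Rbf, and the term for the runs 2 in B1/P/Rbf and 1 in B1/P. Over the 6 comparisons, the study's filter left 0 calls for FGF ligands (main 16), 4 for FGF co-receptors (15), 18 for the IGF genes (32), 4 for AXL genes (7), 22 for shared signaling (35) and 13 for target genes (20). The term for the runs left 21 for HGF and MET partners (33), 16 for the IGF genes, 4 for AXL genes and 22 for shared signaling, and no filter left 4 for AXL genes. By Spearman's rho, 11 of the 30 genes named as most alike stayed among the closest 3.

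Leaving out each library in turn, members called ranged from 2 to 5 (B1/P/Rbf against B1/P, 2 without 208857, 209490 or 210906), 3 to 5 (P/Rbf against B1/P), 0 to 1 (B1/P/Rbf against P/Rbf), and against the glands 3 to 5, 1 to 4 (B1/P, 1 without 330155 or 330156) and 4 to 6. List calls ranged from 12 to 17 (FGF ligands), 11 to 17 (co-receptors), 28 to 37 (HGF and MET), 17 to 35 (IGF, lowest without 330155), 2 to 7 (AXL, lowest without 330155), 25 to 37 (signaling) and 14 to 21 (targets), and ratio calls ranged from 0 to 0, which says nothing about stability, since even with all libraries the smallest p before adjustment is 0.00794, or 0.0179 against the glands.

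Uncalled signs turned as follows. With voom, Igf1r in P/Rbf against B1/P was -0.42, Fgfr1 and Hgf in B1/P/Rbf against P/Rbf 0.16 and -0.09, Fgfr2 in B1/P/Rbf against glands -0.25 and Axl in P/Rbf against glands -0.23. With the study's filter, Fgfr2 and Axl in B1/P/Rbf against glands were -0.05 and -0.04 and Axl in P/Rbf -0.26. Without TMM, Fgfr2 in P/Rbf against glands was 0.08. With the term for the runs, Fgfr4, Hgf, Insr, Igf1 and Axl in B1/P/Rbf against P/Rbf were 2.66, -1.08, -0.02, -0.72 and -0.51, Axl in B1/P/Rbf against glands -0.37 and Hgf in B1/P against glands -0.71. Without tumors 287845 and 287822, Fgfr3 and Fgfr4 in B1/P/Rbf against P/Rbf were -0.41 and 1.48, and Igf1r and Axl in P/Rbf against glands -0.73 and -0.68. Leaving out 1 library, B1/P/Rbf against P/Rbf ranged from -0.42 to 0.25 (Fgfr1), -0.25 to 1.49 (Fgfr3), -0.87 to 1.78 (Fgfr4), -0.01 to 0.61 (Hgf), -0.18 to 0.54 (Igf1) and -0.20 to 0.80 (Axl). Against glands it ranged from -0.16 to 0.51 (Fgfr2) and -0.06 to 0.49 (Axl) in B1/P/Rbf, -0.76 to 0.51 (Hgf) in B1/P, and -0.79 to 0.06 (Fgfr2) and -0.56 to 0.39 (Axl) in P/Rbf. The ratio of Fgfr1 to Fgfr2 ranged from -0.92 to 0.40 in B1/P/Rbf against P/Rbf, and against glands from -1.18 to 0.07 in B1/P/Rbf and -0.87 to 0.36 in P/Rbf. That of Igf1r to Insr ranged from -0.91 to 0.84 in P/Rbf against B1/P, and that of Hgf to Met from -0.38 to 0.69 in B1/P against glands.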
